A study of Mus musculus with 62 samples.

Results

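The genes described here are 10 members of the insulin, insulin-like growth factor (IGF), leptin and growth hormone pathways, measured by RNA-seq in the mouse neocortex while melanoma-induced cachexia developed. They are the ligands Igf1 and Igf2, the receptors Insr, Igf1r, Lepr and Ghr, the docking protein gene Irs1 and the IGF binding protein genes Igfbp2, Igfbp4 and Igfbp5, and they were found by gene symbol as 10 of the 47643 rows of the expression table. All 10 were among the 14494 genes with a mean level of 1 TPM or more (a share of each library's transcripts corrected for transcript length) that entered the tests. Female mice aged 2 months were injected with melanoma cells described as cachectic (CAC), with melanoma cells described as non-cachectic (NCAC), or with neither (mock), and neocortex was collected 2, 4, 6 or 8 weeks later. That gives 12 groups and 62 libraries, with 7 libraries for CAC at 8 weeks and 5 in each other group. The series description names the mice as NCI Ath/nude while the sample labels give C57BL6/J for every group, and an extraction text names LLC cells in place of melanoma cells; nude mice lack a thymus and most T cells, so the strain bears on what host the tumours grew in. The labels do not say how many melanoma lines or clones stand behind CAC and NCAC, and body weights were not analysed here.

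Insulin and the IGFs bind the related tyrosine kinase receptors encoded by Insr and Igf1r, which phosphorylate docking proteins such as IRS1 and so switch on PI3K, AKT and mTOR. IGF binding proteins hold IGFs in extracellular fluid and either limit or prolong their access to the receptor. In adult brain, Igf2 is made chiefly by the choroid plexus, meninges and vessels, Igfbp2 by astrocytes, choroid plexus and meninges, and Igf1 by scattered neurons and glia. The leptin receptor reports fat stores and the growth hormone receptor drives Igf1 transcription through JAK2 and STAT5. All of these results are from bulk tissue, in which fewer cells of a type and less RNA per cell cannot be told apart.

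The 10 genes lie on 7 mouse chromosomes (GRCm38, GENCODE vM21 gene bounds). Igfbp2 (chr1:72824503-72852474, plus strand) and Igfbp5 (chr1:72857932-72874884, minus strand) are neighbours, and Irs1 lies on the same chromosome (chr1:82233101-82291416, minus). Igf1r (chr7:67952827-68233668, plus) and Igf2 (chr7:142650766-142666816, minus) share chromosome 7. The others are Lepr (chr4:101717404-101815352, plus), Insr (chr8:3122061-3279617, minus), Igf1 (chr10:87858265-87937042, plus), Igfbp4 (chr11:99041244-99054392, plus) and Ghr (chr15:3317760-3583492, minus). The gene models differ widely in length, from 1847 exon bases for Igfbp2 to 13746 for Insr and 16791 for Igf1r. Of the exon bases of Igf2, 62.8% are shared with the same-strand gene model Gm49394. No level was available for Gm49394 here, so how shared reads were assigned was not tested.

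Promoter windows, 250 bases before to 50 bases after a transcription start, were taken from RefSeq (GRCm38.p6) for the 9 of 10 genes that matched by symbol, all but Insr. Those of the genes called different between groups below are shown, 5′ to 3′ on the strand of the gene, because Igfbp4 and Igf1r were higher and Igfbp2 lower in the same comparison. Capitals mark matches on either strand to a GC box (GGGCGG) or to the glucocorticoid receptor hexamer AGAACA.
Igf1r chr7:67952007-67952306 (plus strand): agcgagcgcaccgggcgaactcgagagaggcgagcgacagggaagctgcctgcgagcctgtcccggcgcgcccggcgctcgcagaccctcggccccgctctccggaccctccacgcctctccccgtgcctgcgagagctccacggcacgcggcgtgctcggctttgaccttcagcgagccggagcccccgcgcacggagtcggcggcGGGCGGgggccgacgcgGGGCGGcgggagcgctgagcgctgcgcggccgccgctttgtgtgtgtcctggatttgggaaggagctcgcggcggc
Igfbp2 chr1:72824230-72824529 (plus strand): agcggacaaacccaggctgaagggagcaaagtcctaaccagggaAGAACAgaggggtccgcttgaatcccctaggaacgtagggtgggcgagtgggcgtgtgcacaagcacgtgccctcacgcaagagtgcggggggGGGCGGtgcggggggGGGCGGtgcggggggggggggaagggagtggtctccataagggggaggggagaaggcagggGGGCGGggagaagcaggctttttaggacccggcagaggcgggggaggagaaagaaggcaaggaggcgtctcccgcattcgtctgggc
Igfbp4 chr11:99040994-99041293 (plus strand): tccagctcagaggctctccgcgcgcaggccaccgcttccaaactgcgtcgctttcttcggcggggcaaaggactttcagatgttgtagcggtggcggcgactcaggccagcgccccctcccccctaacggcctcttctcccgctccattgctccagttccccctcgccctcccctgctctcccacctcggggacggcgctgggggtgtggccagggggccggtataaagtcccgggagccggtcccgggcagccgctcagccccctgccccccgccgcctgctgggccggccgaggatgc
The Igf1r window had 2 GC boxes and a GC content of 76%, the Igfbp2 window 3 GC boxes and 1 AGAACA with a GC content of 67%, and the Igfbp4 window no match with a GC content of 71.3%. Among 32851 RefSeq mouse promoter windows of the same length, 35.7% held GGGCGG and 19% held AGAACA. No window of the 9 genes, 15 windows in all, held the FOXO motif GTAAACA (3.65% of all windows), the STAT motif TTCNNNGAA (8.3%) or the full glucocorticoid receptor palindrome (3 windows of 32851), which contains the hexamer above. Such matches describe these letters only and say nothing of binding.

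The libraries were similar in depth, an estimated 45.1 to 50.8 M reads (median 48.2 M) from the steps in low TPM values, so that 1 TPM of a gene with 2000 exon bases stood for about 28.0 reads. The read unit of each library was chosen to make the most values whole within 0.05 of a read. With it 86.4% of 207579 values were whole, which is the criterion itself and no independent check. The 3 libraries left out in one alternative stood apart by their markers. Mock replicate 5 at 2 weeks carried pituitary RNA (Gh, growth hormone, at 938.2 TPM against 11.38 in the next library and 0 in 47 libraries), CAC replicate 1 at 4 weeks had low striatal markers and CAC replicate 3 at 8 weeks had high haemoglobin genes. Mock replicate 5 at 2 weeks also had a thalamus score 2.37 above the median. Its excitatory neuron score, 5.878, was the lowest of the 62 libraries (median of its group 6.551). Striatal markers were present in most libraries: their summed level had group medians of 761.8 to 1139 TPM, against 152.7 TPM in CAC replicate 1 at 4 weeks. The levels given here may thus not be of neocortex alone. A further 8 libraries deviated in at least 1 marker list, among them CAC replicate 1 at 6 weeks, whose hypothalamus and pituitary score was 2.09 above the median and without which several calls at 6 weeks were lost, as given with each. The summed level of 12 choroid plexus markers varied strongly between pieces of tissue, from 28.5 TPM to 2666 TPM within the CAC libraries at 6 weeks alone. On average most of that sum was Ttr, at a mean of 1121 TPM over 62 libraries. Ttr alone ran from 7.1 to 2577 TPM within those CAC libraries. The libraries of 2 weeks ran on lane 3 and those of 6 and 8 weeks on lane 4, so lane was not confounded with the arm there. At 4 weeks CAC and 4 of 5 NCAC libraries ran on lane 3 and mock on lane 4. No other group spanned both lanes, so a lane term in the fit rests on 1 library, NCAC replicate 5 at 4 weeks.

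On the TPM scale, which is per length and can be compared between genes, Igfbp5 was the most abundant member with a mean of 87.8 TPM over 62 libraries. It was followed by Igfbp2 (55.3), Igf2 (47.6) and Igfbp4 (36.7). The receptors Insr (20.1) and Igf1r (18.5) had similar levels. Irs1 stood at 5.97 TPM, and Ghr (3.05), Igf1 (3.05) and Lepr (1.85) were low. With the 12 groups ordered by mean, in none of the 10 genes did any of the 11 neighbouring pairs differ by more than the larger of the 2 SDs. Small gaps are likely when 12 means are put in order, so this does not show a continuum. Groups farther apart in the order could separate, as did Igfbp2 in CAC and NCAC at 6 weeks (below). The ratio of the highest to the lowest group mean was widest for Igfbp4 (1.59), Igfbp2 (1.58), Igf2 (1.54) and Lepr (1.53) and narrowest for Igfbp5 (1.15).

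**Figure D1:**
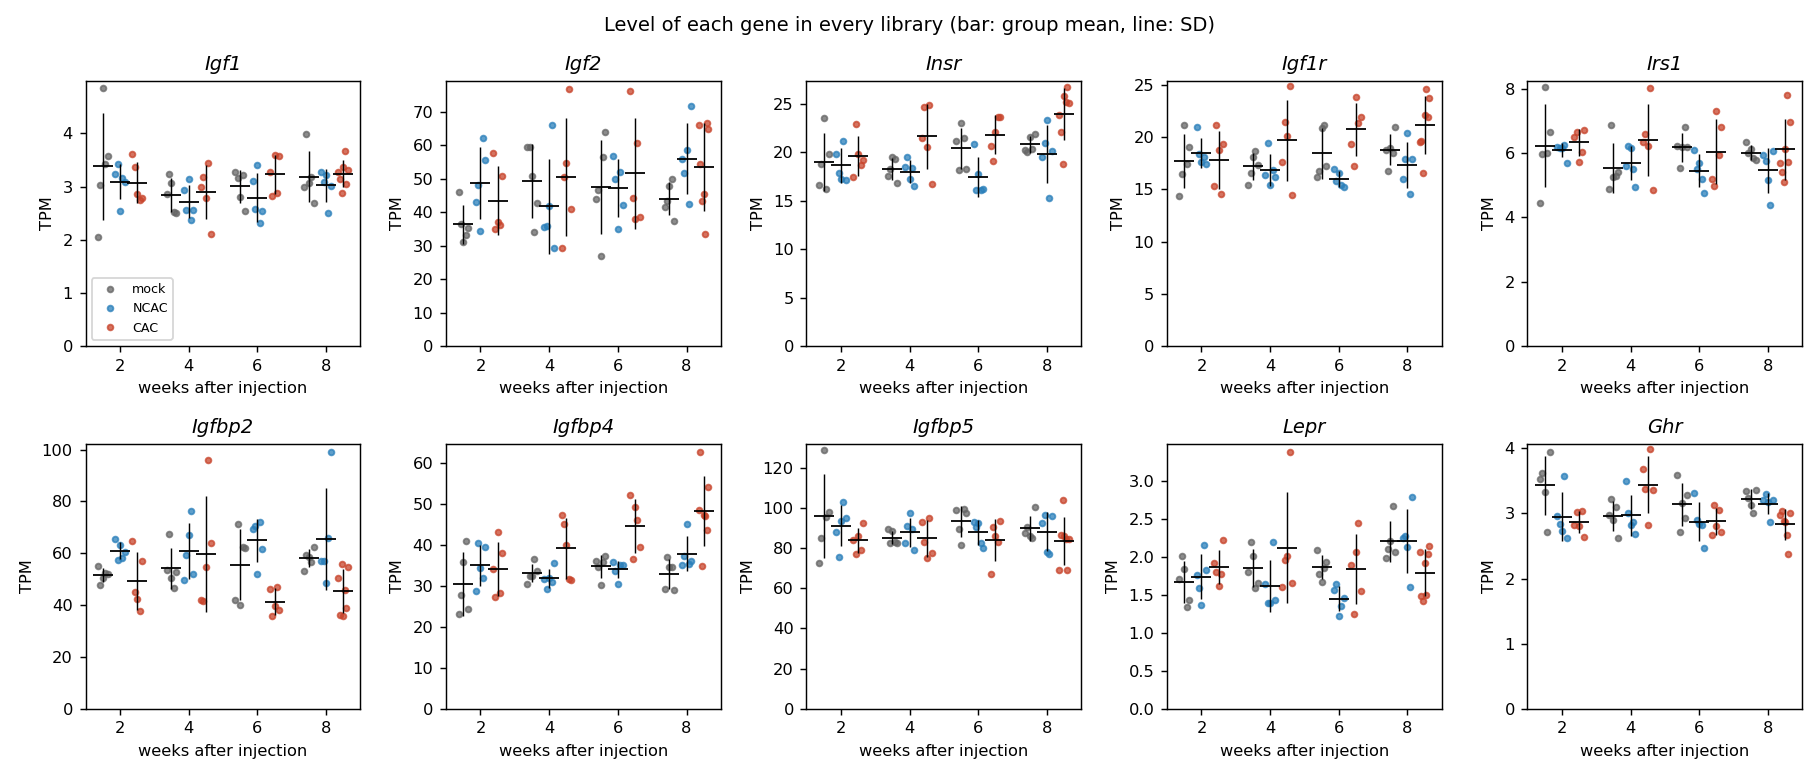
Level in TPM (vertical axes, from 0) of the 10 genes in all 62 libraries against weeks after injection, with mock in grey, NCAC in blue and CAC in red; each point is a library, horizontal bars are group means and vertical lines are SDs. Igfbp4 in CAC reached group means of 44.7 TPM at 6 weeks and 48.3 TPM at 8 weeks while the mock means stayed between 30.4 and 34.7 TPM.

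Differences between groups were tested with limma on log2(TPM + 1), and a gene was called at a Benjamini-Hochberg adjusted p under 0.05 over all 14494 genes. Most calls lay between CAC and NCAC at 6 weeks, where 4 of 10 members were called, 3 higher and 1 lower in CAC, against a background of 9.65% of all genes. In the comparison of CAC with mock at 8 weeks 1 of 10 was called (background 8.6%), and for CAC against NCAC at 8 weeks 1 of 10 (background 6.02%), both shares near the background. These background shares themselves moved when 1 library was left out, for CAC against NCAC at 6 weeks from 1399 called genes to 342 without CAC replicate 1 and 2508 without CAC replicate 2. No member was called for CAC against mock at 6 weeks, where 1.63% of genes were called and 2 members had an unadjusted p under 0.05 by limma. At 2 weeks limma called 0 of 10 members in CAC against mock (background 4.28%), NCAC against mock (8.71%) and CAC against NCAC (0%), with 1, 1 and 0 members at an unadjusted p under 0.05. At 4 weeks it called 0 of 10 in CAC against mock (0.0414%), NCAC against mock (0%) and CAC against NCAC (0.0069%), with 2, 0 and 4 members at an unadjusted p under 0.05. NCAC against mock gave 0 of 10 members at 6 weeks (background 0%) and at 8 weeks (0%), with 2 and 0 at an unadjusted p under 0.05. The difference of CAC from mock, compared between 2 and 8 weeks, gave 0 of 10 (background 1.32%), with 2 at an unadjusted p under 0.05. That from 6 to 8 weeks (0%) and the mock groups at 8 against 4 weeks (0%) gave 0 of 10, with 0 members at an unadjusted p under 0.05 in both. All background shares here are of adjusted calls, so the counts at an unadjusted p cannot be set beside them. The share of all genes at an unadjusted p under 0.05 is not given here.

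**Figure D2:**
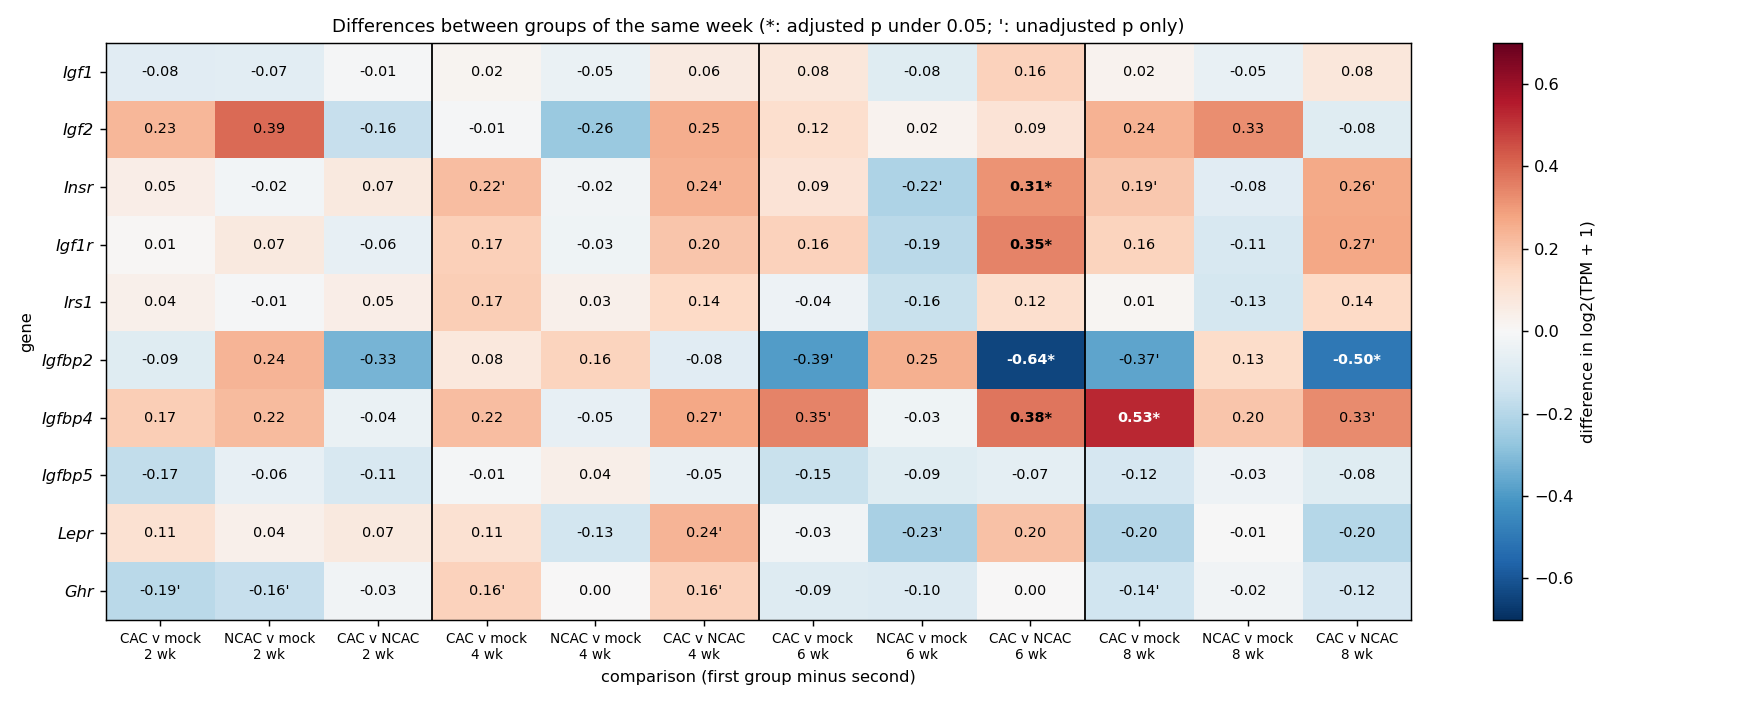
Difference in log2(TPM + 1) of each gene (rows) in the 12 comparisons between groups of the same week (columns, the first group minus the second), coloured from blue (lower) to red (higher), with a star for an adjusted p under 0.05 and an apostrophe for an unadjusted p under 0.05 only. The 6 starred cells are Insr, Igf1r, Igfbp2 and Igfbp4 for CAC against NCAC at 6 weeks, Igfbp4 for CAC against mock at 8 weeks and Igfbp2 for CAC against NCAC at 8 weeks.

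Among the ligands, Igf1, the secreted growth factor that signals through IGF1R, showed no called difference. Its group means lay between 2.72 TPM (NCAC at 4 weeks) and 3.38 TPM (mock at 2 weeks), and its within-week log2 differences between -0.08 and 0.16. At 8 weeks Igf1 was 3.24 ± 0.252 TPM (SD, n = 7) in CAC, 3.18 ± 0.483 (n = 5) in mock and 3.02 ± 0.308 (n = 5) in NCAC, with overlapping groups. The difference of CAC from mock was 0.02 on the log2 scale, with a 95% interval from -0.17 to 0.22.

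Igf2, the growth factor of fetal tissues whose adult brain source is mainly choroid plexus and meninges, varied more within groups than between them. At 8 weeks its level ran from 33.5 to 66.7 TPM in CAC (median 54.3, n = 7). The mock libraries held 41.5, 43.2, 47.8, 49.98 and 37.5 TPM and the NCAC libraries 55.8, 51.6, 58.7, 42.4 and 71.6 TPM. All 3 groups overlapped, and the difference of CAC from mock was 0.24 (SE 0.20, adjusted p = 0.516). Igf2 followed the choroid plexus score, the mean log2(TPM + 1) of 12 marker genes, with a Pearson r of 0.73 and a Spearman rho of 0.76 over 62 libraries (r = 0.70 without the 2 libraries farthest from the median score, and 0.83 for deviations from group means). The points of such a relation share the dissection and the library.

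With the choroid plexus and meningeal fibroblast scores as terms in the fit, the SE of Igf2 for CAC against mock at 8 weeks fell from 0.20 to 0.08 and the difference became 0.46 (adjusted p = 0.000113). The same fit gave 0.31 at 6 weeks against mock (adjusted p = 0.0371), 0.27 at 6 weeks against NCAC (adjusted p = 0.0440) and 0.26 at 8 weeks against NCAC (adjusted p = 0.0375), all called by limma. At 2 and 4 weeks the score-adjusted Igf2 differences of CAC from mock were 0.11 and -0.002, not called. Against NCAC at 8 weeks the sign changed, from -0.08 without the scores (adjusted p = 0.844) to 0.26 with them. The fit takes the same slope in every group and a score that does not depend on the arm, and neither was tested. At 8 weeks the mean choroid plexus score was 2.539 in CAC, 2.999 in mock and 3.254 in NCAC. Summed choroid plexus markers, on average mostly Ttr, ran from 74.1 to 2541 TPM (median 169.5) in CAC at 8 weeks. They ran from 596.6 to 2434 (median 1037) in mock and from 201.5 to 2392 (median 1180) in NCAC. All 12 choroid plexus markers had lower fitted levels in CAC than in NCAC at 8 weeks, by a median of -0.63 log2, but 0 of 12 were called. Summed meningeal markers overlapped, at 124.6 to 160.0 TPM in CAC, 124.0 to 163.1 in mock and 128.0 to 158.1 in NCAC, and no defining marker of either list was at 0 in every library of a group.

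**Figure D3:**
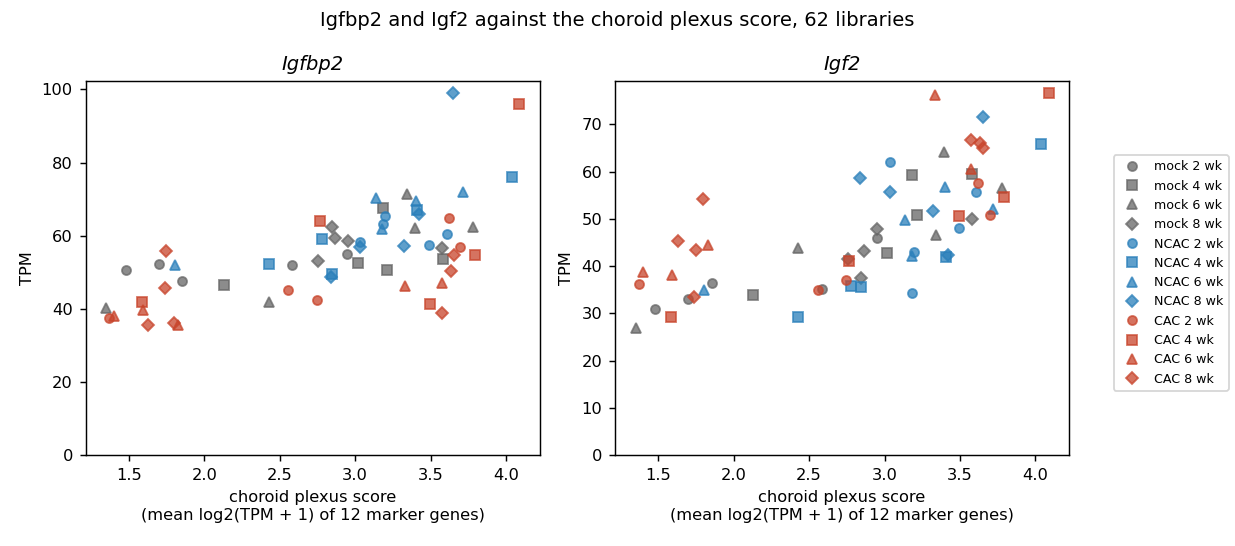
Igfbp2 (left) and Igf2 (right) in TPM against the choroid plexus score, the mean log2(TPM + 1) of 12 marker genes, in 62 libraries; colour is the arm (mock grey, NCAC blue, CAC red) and shape the week. Both genes rose with the score (r = 0.66 and 0.73).

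The insulin receptor gene Insr was higher in CAC than in NCAC at 6 weeks. The CAC libraries held 20.6, 19.1, 22.1, 23.7 and 23.7 TPM and the NCAC libraries 20.9, 16.1, 17.8, 16.2 and 16.2 TPM. A single NCAC library, replicate 1, reached into the CAC range, and 3 of 5 CAC libraries lay above all NCAC libraries. The log2 difference was 0.31 (SE 0.10, adjusted p = 0.0335 by limma), a 1.24-fold difference on the log2(TPM + 1) scale. Mock at 6 weeks held 21.2, 18.2, 23.0, 21.5 and 18.2 TPM, so CAC did not differ detectably from mock (0.09, adjusted p = 0.737) and the NCAC group was the low one (-0.22 against mock, unadjusted p = 0.0268, adjusted p = 0.662).

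At 8 weeks Insr had its highest group mean, 24.0 ± 2.72 TPM in CAC (SD, n = 7), with a range of 18.8 to 26.8. The mock libraries held 20.2, 20.1, 21.6, 20.3 and 21.9 TPM and the NCAC libraries 19.5, 21.0, 23.4, 15.3 and 20.1 TPM. Of 7 CAC libraries, 6 were above every mock library and replicate 3, the library with high haemoglobin genes, was below all of them. The differences, 0.19 from mock (unadjusted p = 0.0397, adjusted p = 0.195) and 0.26 from NCAC (unadjusted p = 0.00430, adjusted p = 0.0627), were not called. Without CAC replicate 3 the difference of Insr from NCAC was 0.32 (adjusted p = 0.0119), and without NCAC replicate 3 it was 0.32 (adjusted p = 0.0193). At 4 weeks CAC held 21.5, 24.7, 20.6, 24.9 and 16.7 TPM against 17.6, 18.3, 19.6, 19.3 and 16.9 in mock, a difference of 0.22 (unadjusted p = 0.0268, adjusted p = 0.317) that sets lane 3 against lane 4 and was 0.07 (SE 0.20) with lane as a term. That term rests on 1 NCAC library, so it cannot tell lane from arm. Against NCAC at 4 weeks the difference of Insr was 0.24 (unadjusted p = 0.0147, adjusted p = 0.202), which passed only without CAC replicate 5 (0.33, adjusted p = 0.0255). Among mock libraries, Insr at 8 weeks lay above Insr at 4 weeks without overlap, by 0.18 (adjusted p = 0.388), which was not called.

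Igf1r, the IGF receptor, moved with Insr: the Pearson r of their log2 levels over 62 libraries was 0.85. In CAC at 6 weeks the libraries held 19.3, 17.3, 23.8, 21.4 and 22.0 TPM, and those of NCAC 17.0, 15.8, 16.5, 15.5 and 15.2 TPM, without overlap. The log2 difference was 0.35 (SE 0.11, adjusted p = 0.0301 by limma). Mock at 6 weeks held 16.2, 16.7, 20.9, 21.2 and 17.2 TPM, between the tumour groups and overlapping both. At 8 weeks Igf1r ran from 16.6 to 24.6 TPM in CAC (median 21.9) against 18.8, 16.8, 19.0, 18.5 and 21.0 in mock and 16.0, 17.9, 20.4, 14.6 and 17.9 in NCAC. The differences, 0.16 from mock (adjusted p = 0.353) and 0.27 from NCAC (unadjusted p = 0.00733, adjusted p = 0.0848), were not called. Without CAC replicate 3, or without NCAC replicate 3, the difference of Igf1r from NCAC was 0.32 (adjusted p = 0.0217) or 0.33 (adjusted p = 0.0323).

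Both receptor transcripts are long, and both followed a library-wide measure of long against short transcripts. This score, the mean log2 level of 2497 genes with more than 8000 exon bases minus that of 2061 genes with fewer than 2000, correlated with Insr at r = 0.82 and with Igf1r at r = 0.74 (rho 0.84 and 0.74; r = 0.80 and 0.72 without the 2 libraries farthest from the median score; r = 0.88 and 0.76 for deviations from group means). Its group mean was lowest in NCAC at 6 weeks (-0.126, range -0.240 to 0.019), against -0.020 in CAC and 0.005 in mock at 6 weeks. With the score as a term, an alternative added after the data were seen, the CAC to NCAC difference at 6 weeks was 0.17 for Insr (SE 0.05, adjusted p = 0.0267) and 0.22 for Igf1r (adjusted p = 0.0576). In the same fit Insr was also called at 8 weeks, at 0.21 against mock (SE 0.04, adjusted p = 0.00122) and 0.17 against NCAC (adjusted p = 0.0108). The difference of Insr between NCAC and mock at 6 weeks shrank from -0.22 to -0.05. RNA integrity was not analysed here. Between CAC and NCAC at 6 weeks, where 9.65% of all genes were called, 9 of 15 glucocorticoid-responsive genes were higher in CAC. Their summed level, on average mostly Mt1 and Mt2, was 2051 to 2913 TPM against 1385 to 1887 TPM. Of 10 endothelial markers 3 were higher and 1 lower, with summed levels of 289.5 to 350.8 TPM against 245.4 to 291.5 TPM. Of 10 mature oligodendrocyte markers, 5 were called lower and all 10 had lower fitted levels in CAC, with summed levels of 2100 to 2354 TPM against 2335 to 3033 TPM, and this score correlated with Insr at r = -0.39 and with Igf1r at r = -0.30. Insr and Igf1r correlated with the glucocorticoid-responsive score at r = 0.63 and 0.66 and with the endothelial score at 0.47 and 0.41, and the part of any of these in the receptor differences was not tested.

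**Figure D4:**
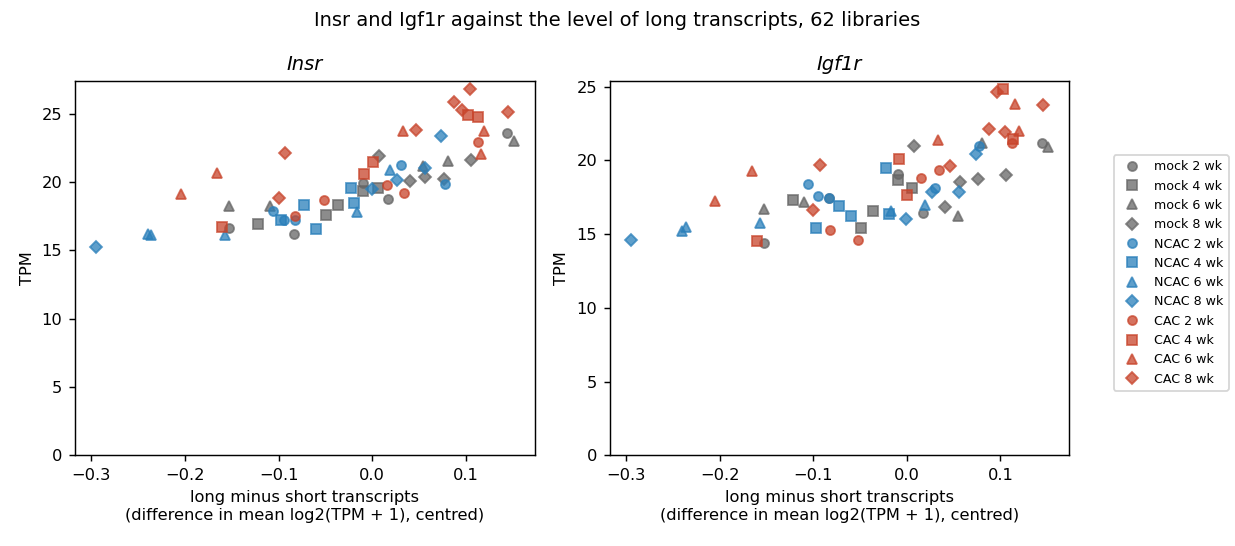
Insr (left) and Igf1r (right) in TPM against the long transcript score, the mean log2(TPM + 1) of genes with more than 8000 exon bases minus that of genes with fewer than 2000, centred on the median of 62 libraries; colour is the arm and shape the week. Both genes rose with the score (r = 0.82 and 0.74), and the NCAC libraries of 6 weeks had the lowest mean score (-0.126).

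The calls of both receptors at 6 weeks depended on scaling and on single libraries. That of Insr was also lost without a filter on level (adjusted p = 0.0535) and with only the groups compared (adjusted p = 0.0600). Under TMM scaling, which aligns the libraries on the bulk of genes, the differences were 0.23 for Insr (adjusted p = 0.0588) and 0.27 for Igf1r (adjusted p = 0.0616); among all genes the share of higher calls in this comparison fell from 83.4% (1167 higher, 232 lower) to 39.2% (282 higher, 437 lower). Insr lost its call without any 1 of CAC replicates 1, 4 and 5 or NCAC replicates 2, 4 and 5 (adjusted p = 0.0602 to 0.0892), and Igf1r without any 1 of CAC replicates 1, 3, 4 and 5 or NCAC replicates 2, 4 and 5 (adjusted p = 0.0550 to 0.0761).

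Irs1, which carries the signal from both receptors to PI3K, gave no called difference. Its group means lay between 5.46 TPM (NCAC at 6 weeks) and 6.41 TPM (CAC at 4 weeks). At 8 weeks CAC ran from 5.11 to 7.82 TPM (median 5.74), and mock held 6.36, 6.00, 6.13, 5.84 and 5.78 TPM, with a difference of 0.01 (95% interval -0.17 to 0.20). Its within-week log2 differences lay between -0.16 and 0.17. Irs1 also correlated with the long transcript score (r = 0.70), and its exons overlap the opposite-strand model Gm9747, which averaged 0.003 TPM.

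Igfbp4, which binds IGFs and releases them when cut by the protease PAPP-A, was higher in CAC than in mock at 8 weeks. The CAC libraries ran from 34.8 to 62.6 TPM (median 47.3), and the mock libraries held 29.2, 37.0, 34.6, 34.5 and 29.1 TPM. Of the 7 CAC libraries, 6 lay above every mock library, the exception being replicate 3. The log2 difference was 0.53 (SE 0.12, adjusted p = 0.00235 by limma), a 1.44-fold difference on the log2(TPM + 1) scale, and it was called under each alternative run and without any 1 library of the 2 groups (adjusted p = 0.000145 to 0.0187). Without CAC replicate 3 it was 0.60 (adjusted p = 0.000266).

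The Igfbp4 difference from mock was larger at later weeks: 0.17 at 2 weeks, 0.22 at 4 weeks, 0.35 at 6 weeks (unadjusted p = 0.00884, adjusted p = 0.158) and 0.53 at 8 weeks. The change from 2 to 8 weeks was 0.35 (unadjusted p = 0.0463, adjusted p = 0.364), so a growing difference was not established. At 6 weeks the CAC libraries held 52.2, 36.5, 49.2, 45.9 and 39.5 TPM, all above the NCAC libraries with 35.8, 33.6, 30.3, 35.1 and 35.0 TPM. Mock at 6 weeks held 35.9, 34.6, 30.2, 35.8 and 37.2 TPM, and 4 of 5 CAC libraries lay above all of them. The difference of Igfbp4 from NCAC at 6 weeks was 0.38 (SE 0.13, adjusted p = 0.0491), at the threshold: it was lost in 5 of 8 alternatives, among them TMM scaling (0.29, adjusted p = 0.159), and without any 1 of CAC replicates 1, 3, 4 and 5 or NCAC replicates 2, 3, 4 and 5 (adjusted p = 0.0587 to 0.144).

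NCAC lay between mock and CAC for Igfbp4 at 8 weeks, at 35.2, 37.3, 45.2, 35.2 and 36.1 TPM. CAC exceeded NCAC by 0.33 (unadjusted p = 0.00676, adjusted p = 0.0815), which passed without CAC replicate 3 (0.41, adjusted p = 0.0163) or without NCAC replicate 3 (0.40, adjusted p = 0.0332). At 4 weeks the difference of Igfbp4 from NCAC was 0.27 (unadjusted p = 0.0374, adjusted p = 0.275). The 3 genes most like Igfbp4 over the 62 libraries were Wbp2, Gpd1 and Prrt2 (Pearson r = 0.83, 0.83 and 0.82). Glucocorticoid-responsive genes moved in CAC against mock at 8 weeks, where 8.6% of all genes were called: of 15 listed genes 14 rose. Their summed level was 1492 to 2935 TPM in CAC and 1325 to 1636 TPM in mock. On average most of that sum was Mt1 and Mt2 (means of 822.6 and 400.2 TPM over 62 libraries). Among cell type markers, 5 of 10 microglial and 3 of 10 mature oligodendrocyte markers fell, while 2 of 10 astrocyte markers rose and 3 fell. Igfbp4 correlated with the glucocorticoid-responsive score at r = 0.65 and with the microglial score at r = -0.64 over 62 libraries, as description. Its correlations with the excitatory neuron, oligodendrocyte precursor and mature oligodendrocyte scores were 0.57, -0.56 and -0.40. The part of any of these in the Igfbp4 difference was not tested.

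Igfbp2, the main IGF binding protein of cerebrospinal fluid, was lower in CAC than in NCAC at 6 weeks. The CAC libraries held 46.3, 35.7, 39.7, 47.0 and 38.1 TPM and the NCAC libraries 69.4, 70.4, 52.0, 71.9 and 61.7 TPM, without overlap. The log2 difference was -0.64 (SE 0.17, adjusted p = 0.0140 by limma), a level 0.642 times that in NCAC on the log2(TPM + 1) scale. It was called under each alternative run and without any 1 library (-0.73 to -0.52, adjusted p = 0.00763 to 0.0418). Mock at 6 weeks held 41.9, 71.4, 40.2, 62.4 and 62.2 TPM, a split group whose lower libraries overlapped CAC (difference of CAC -0.39, unadjusted p = 0.0223, adjusted p = 0.254). At 2 weeks the NCAC libraries (65.4, 57.6, 63.2, 58.4 and 60.6 TPM) lay above all mock libraries (55.1, 47.6, 50.7, 52.3 and 51.9 TPM), a difference of 0.24 that was not called (adjusted p = 0.351).

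At 8 weeks Igfbp2 ran from 35.7 to 55.7 TPM in CAC (median 45.8), against 56.8, 57.1, 48.6, 65.9 and 99.1 TPM in NCAC. The difference was -0.50 (SE 0.15, adjusted p = 0.0391). NCAC replicate 5, at 99.1 TPM the highest of all 62 libraries, moved this value most: it became -0.34 (adjusted p = 0.251) without it. The call held in only 3 of 8 alternatives, being lost without a filter on level (adjusted p = 0.0659), with only the groups compared (0.122), the replicate block (0.0980), the marker scores (0.103) or the long transcript score (0.0591). The replicate block also takes out CAC replicates 6 and 7, whose numbers no other group has. The call was also lost without any 1 of CAC replicates 2, 4 and 6 or NCAC replicate 4 (adjusted p = 0.0875 to 0.0957). Without CAC replicate 3 the difference was -0.55 (adjusted p = 0.0161). Mock at 8 weeks held 53.2, 59.5, 58.5, 56.6 and 62.5 TPM, and 5 of 7 CAC libraries lay below all of them (difference -0.37, unadjusted p = 0.0199, adjusted p = 0.131).

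Igfbp2 also followed the choroid plexus score, at r = 0.66 and rho = 0.61 over 62 libraries (r = 0.63 without the 2 libraries farthest from the median score and 0.63 for deviations from group means). Of the 3 genes most like it, Aqp1, Sostdc1 and Rsph1 (r = 0.76, 0.75 and 0.74), Aqp1, a water channel, and Sostdc1, a secreted BMP inhibitor, are on the choroid plexus marker list. With the choroid plexus and meningeal scores as terms, the difference of Igfbp2 from NCAC was -0.52 at 6 weeks (adjusted p = 0.0123) and -0.32 at 8 weeks (adjusted p = 0.103, not called). At 6 weeks the summed choroid plexus markers, on average mostly Ttr, ran from 28.5 to 2666 TPM in CAC (median 189.5) and from 41.8 to 2824 in NCAC (median 1642). All 12 markers had lower fitted levels in CAC, with 0 of 12 called. Igf2 and Igfbp2, which shared this relation, had score-adjusted differences of opposite sign, under the untested assumptions of that fit given above for Igf2.

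Igfbp5, the most abundant of the 3 binding proteins, was steady. Its group means lay between 83.3 TPM (CAC at 8 weeks) and 95.9 TPM (mock at 2 weeks), with within-week differences of -0.17 to 0.04 and none called. At 8 weeks CAC ran from 69.0 to 104 TPM (median 84.6) and mock held 87.6, 90.5, 85.9, 85.2 and 100.4 TPM, a difference of -0.12 (95% interval -0.30 to 0.07). The neighbouring gene Igfbp2 thus had the larger range of group means, and the correlation of the 2 genes over libraries was 0.23.

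Lepr, the leptin receptor, was near the lower end of the tested range, and its groups overlapped in all but 1 comparison within a week. At 6 weeks all 5 NCAC libraries (1.56, 1.64, 1.22, 1.35 and 1.46 TPM) lay below all 5 mock libraries (2.09, 1.78, 1.67, 1.85 and 1.93 TPM), by -0.23 (unadjusted p = 0.0411), yet with an adjusted p of 0.662 over all genes it was not called. At 8 weeks CAC ran from 1.42 to 2.14 TPM (median 1.91), against 1.98, 2.10, 2.20, 2.67 and 2.07 TPM in mock and 2.25, 2.28, 2.13, 1.60 and 2.78 TPM in NCAC, with differences of -0.20 and -0.20 (adjusted p = 0.225 and 0.253). The change of the Lepr difference between CAC and mock from 2 to 8 weeks was -0.31 (unadjusted p = 0.0434, adjusted p = 0.356). At 4 weeks Lepr was 0.24 higher in CAC than in NCAC (unadjusted p = 0.0342, adjusted p = 0.265), but 0.11 without CAC replicate 4 (adjusted p = 0.695), which was at 3.38 TPM and also had the highest Igf2 and the highest choroid plexus score of that group. Lepr correlated with the choroid plexus score at r = 0.45, with the meningeal score at r = 0.42 and with Igf2 at r = 0.60 over 62 libraries.

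Ghr, the growth hormone receptor, had the narrowest spread of the low genes, with a coefficient of variation of 11.1% over 62 libraries. At 2 weeks the CAC libraries held 2.82, 3.03, 2.81, 3.04 and 2.64 TPM and the mock libraries 3.53, 3.62, 3.33, 2.72 and 3.95 TPM. The difference was -0.19 (unadjusted p = 0.00956, adjusted p = 0.0986), and that of NCAC from mock -0.16 (unadjusted p = 0.0243, adjusted p = 0.124). The highest mock value, 3.95 TPM, was that of replicate 5, the library with pituitary RNA, without which the differences were -0.15 (adjusted p = 0.238) and -0.12 (adjusted p = 0.287). Both also depended on mock replicate 4, without which they were called (-0.25, adjusted p = 0.0239, and -0.23, adjusted p = 0.0359); the second was also called without NCAC replicate 4 (-0.22, adjusted p = 0.0373). At 4 weeks the sign was opposite, 0.16 against mock (unadjusted p = 0.0269, adjusted p = 0.317), which with lane as a term was 0.03 (SE 0.14), and 0.16 against NCAC (unadjusted p = 0.0284, adjusted p = 0.250). At 8 weeks Ghr ran from 2.37 to 3.04 TPM in CAC (median 2.88) and mock held 3.35, 3.24, 3.12, 3.00 and 3.37 TPM, a difference of -0.14 (unadjusted p = 0.0376, adjusted p = 0.189), with 5 of 7 CAC libraries below all mock libraries. The comparisons with mock at 4 weeks set lane 3 against lane 4, and with lane as a term 0 of 10 members were called in the 3 comparisons of that week. The lane term rests on 1 NCAC library, so neither these counts nor the smaller differences can tell lane from arm.

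For the other genes of the pathway, 7 lists held 83 genes, of which 68 were tested. The lists were fixed with earlier results of these data known, so their shares beside the background are description only. Insulin itself (Ins1, Ins2) and leptin (Lep) were below the level of testing, and growth hormone (Gh) passed only through the library with pituitary RNA. Of the 68, 8 rose and 2 fell in CAC against mock at 8 weeks (14.7% of the list beside 8.6% of all genes), with a median difference of 0.03 against 0.02 over all genes. Between CAC and NCAC, 12 of 68 were higher and 0 lower at 6 weeks, and 10 higher and 1 lower at 8 weeks, beside 9.65% and 6.02% of all genes called. Among all genes 83.4% of calls were higher in CAC at 6 weeks and 72.9% at 8 weeks, against 39.2% and 47.6% under TMM scaling. The comparisons at 8 weeks share the CAC libraries.

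The 4 pathway genes with the lowest p for CAC against mock at 8 weeks were Ddit4, Igfbp7, Akt2 and Sesn1. Ddit4, an inhibitor of mTOR complex activity induced by stress and glucocorticoids, rose from 48.2 ± 4.28 TPM (SD, n = 5) in mock to 107 ± 27.8 TPM (n = 7) in CAC, a log2 difference of 1.10 (adjusted p = 0.000167), with the lowest CAC library (67.9 TPM) above the highest mock library (53.3 TPM). Igfbp7, a secreted vascular protein with low affinity for IGFs, rose from 43.7 ± 3.44 to 65.4 ± 11.9 TPM (0.56, adjusted p = 0.000309). Sesn1, a stress-induced inhibitor of mTOR signalling, rose from 52.7 ± 0.643 to 75.8 ± 13.2 TPM (0.50, adjusted p = 0.000439). Akt2, the AKT kinase best known for insulin-driven glucose uptake, fell from 53.5 ± 1.66 to 39.05 ± 5.05 TPM (-0.45, adjusted p = 0.000361), and no CAC library reached the lowest mock library (45.1 against 50.9 TPM).

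Against NCAC at 8 weeks the same rule named Socs3, Sesn1, Igfbp7 and Ddit4. Socs3, a feedback inhibitor of leptin and cytokine receptors induced by STAT3, was 5.39 ± 1.2 TPM (SD, n = 7) in CAC and 2.58 ± 0.207 TPM (n = 5) in NCAC, a difference of 0.82 (adjusted p = 5.08e-05). Mock at 8 weeks was higher, at 3.55 ± 0.954 TPM, and overlapped CAC (highest mock 5.14, lowest CAC 4.08 TPM). The difference of CAC from mock was 0.49 (adjusted p = 0.0129 by limma). At 6 weeks Socs3 was 5.21 ± 1.21 TPM in CAC, 2.73 ± 0.354 in mock and 2.80 ± 0.338 in NCAC (n = 5 each), called against mock (0.72, adjusted p = 0.00317) and against NCAC (0.69, adjusted p = 0.00254). Stat3 itself was 19.0 ± 1.28 TPM in CAC and 14.3 ± 1.26 TPM in NCAC at 6 weeks (0.39, adjusted p = 0.000926). Sesn1 (0.42, adjusted p = 0.00984) and Inpp5k, a phosphatase of PI3K lipids (0.28, adjusted p = 0.0161), were also higher in CAC than in NCAC at 6 weeks, and both were lost without CAC replicate 1 (adjusted p = 0.0567 and 0.0664). Igfbp7 was called against mock at 6 weeks (0.45, adjusted p = 0.0254) but lost under TMM scaling (0.41), with only the groups compared (adjusted p = 0.0798) and without any 1 of CAC replicates 1, 2 and 4 or mock replicates 1 and 4 (adjusted p = 0.0593 to 0.156).

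By role, and beside 8.6% of all genes called, 3 of 6 tested genes of the IGF binding protein and protease list rose in CAC against mock at 8 weeks, Igfbp7, Igfbp3 (0.40, adjusted p = 0.0312) and the protease gene Htra1 (0.37, adjusted p = 0.0143); the last 2 are named after their values were seen. In that comparison 4 of 19 tested brakes on the pathway rose and 1 fell, 1 of 25 PI3K, AKT and mTOR genes rose and 1 fell, and 0 of 10 docking proteins, 0 of 4 JAK and STAT genes and 0 of 3 other receptors were called; the share of PI3K, AKT and mTOR genes was thus near the background. Against NCAC at 8 weeks, where 6.02% of all genes were called, 4 of 19 brakes, 3 of 25 PI3K, AKT and mTOR genes, 1 of 10 docking proteins, 1 of 4 JAK and STAT genes and 1 of 6 binding proteins rose, and 1 of 25 PI3K, AKT and mTOR genes fell. Endothelial markers had a summed level of 278.6 to 416.6 TPM in CAC and 280.1 to 300.5 TPM in mock at 8 weeks, with 1 of 10 called, and their part in the Igfbp7 difference was not tested.

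**Figure D5:**
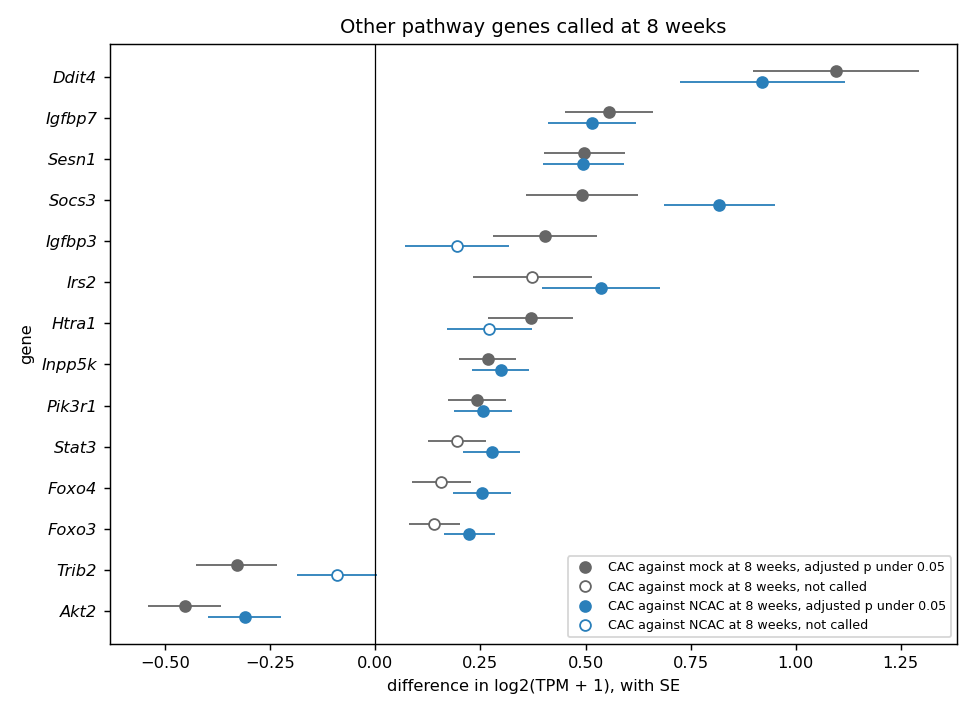
Difference in log2(TPM + 1) with its SE (horizontal axis) of the 14 other pathway genes called in either comparison at 8 weeks (vertical axis), for CAC against mock in grey and CAC against NCAC in blue, filled where the adjusted p was under 0.05 and open where not. Ddit4 was highest against mock (1.10) and Akt2 lowest (-0.45), and for each gene both differences had the same sign.

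At 2 weeks 3 of 68 pathway genes (4.41%) were called against mock in each tumour arm, near the background for CAC (4.28%) and below it for NCAC (8.71%), and Gsk3a and Foxo3 were called in both. For CAC the genes were Gsk3a (0.17, adjusted p = 0.00991), a kinase inhibited by AKT, Foxo3 (0.26, adjusted p = 0.0191), a transcription factor that AKT holds out of the nucleus, and Pik3r2 (0.19, adjusted p = 0.0432), a regulatory PI3K subunit. For NCAC the differences were 0.13 for Gsk3a (adjusted p = 0.0233) and 0.22 for Foxo3 (adjusted p = 0.0306). The 2 comparisons share the mock libraries, and when only the compared groups entered the fit none of these 5 differences was called (adjusted p = 0.142 to 0.272). Each was also lost without at least 1 single library. In the same comparisons 5 of 10 excitatory neuron markers were higher in each arm, and lower were 2 of 10 endothelial and 2 of 9 pericyte and smooth muscle markers for CAC and 4 of 10 and 6 of 9 for NCAC. The part of these cell types in the pathway differences was not tested. Mock replicate 5, which both comparisons share, carried pituitary RNA and high thalamus markers and had the lowest excitatory neuron score of all libraries (5.878).

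By rule, the 3 genes with the most similar pattern were found for each member. The genes most like Insr were Ubr2, Tsc1 and Trip12 (r = 0.94 each), and those most like Igf1r were Taok2, Sec16a and Med13l (r = 0.91, 0.90 and 0.89). Igf2 was most like Ace, Trpv4 and Col8a1 (r = 0.82, 0.80 and 0.79). Lower values held for Irs1 (Ncbp3, Dlc1 and Edrf1, 0.79 to 0.77), Igf1 (Kcnb2, Kif2a and Wdfy1, 0.76 to 0.75), Lepr (Abca4, Slc37a2 and Trpm3, 0.71 to 0.65), Igfbp5 (Igdcc4, Sh3glb1 and Loxl3, 0.67 to 0.65) and Ghr (Adam12, Fhl1 and Sema4g, 0.66 to 0.64). These are Pearson correlations of log2(TPM + 1) over 62 libraries that share dissection, depth and library preparation, given as description.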

How the data were processed

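RNA was extracted from neocortex and sequenced on an Illumina NovaSeq from stranded mRNA libraries, per the labels' protocols. The authors deposited 1 table of TPM values (each library sums to 1000000) for 47643 genes in 62 libraries, on build mm10 (per the submitters' processing notes); aligner, counting program and annotation were not given in the sources used here. Counts were not used, and depth was estimated from steps in low TPM values. Groups follow the labels, which call replicates biological but name no animals, so p-values measure the spread between these samples. The 10 genes and all lists were chosen with earlier results of these data known.

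The 14494 genes whose mean over all libraries reached 1 TPM were fitted with limma 3.58.1 in R 4.3.3 on log2(TPM + 1), with 12 group means, a mean-variance trend and 50 residual degrees of freedom; differences are on that scale, which understates changes of low genes. P-values (two-sided) were adjusted by Benjamini-Hochberg within each of 15 comparisons. The fit was tested on simulated data. Named genes are the 10 members, the called pathway genes with the lowest p (at most 4 a comparison) and the 3 genes most correlated with each member. A gene that met this rule is not reported here. Alternatives changed 1 choice at a time: TMM scaling, no filter on level, a smaller pseudocount (0.1), a replicate block, marker scores, lane or the long transcript score (added later) as terms, only the groups compared, and leaving out libraries. Positions are from GENCODE vM21, which matched 45108 symbols, and promoters from RefSeq. Gene symbols turned into dates by a spreadsheet (27) were kept out of the named genes.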

Additional observations from a re-analysis of the deposited data

Results flagged for a closer look

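Of 120 sets of 1 gene in 1 group of 5 or 7 libraries, 6 had a library far from the others, and chance flags about 1 in 20 such sets. They were Igf1r in NCAC replicate 1 at 2 weeks (20.99 TPM, the next 18.4), Irs1 in mock replicate 2 at 4 weeks (6.885 TPM, the next 5.416), Irs1 in NCAC replicate 5 at 2 weeks (5.704 TPM, the next 6.162), Igfbp4 in NCAC replicate 3 at 8 weeks (45.167 TPM, the next 37.271), Lepr in CAC replicate 4 at 4 weeks (3.381 TPM, the next 2.013) and Ghr in NCAC replicate 4 at 8 weeks (2.866 TPM, the next 3.169).

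For 2 pathway genes the difference between CAC and mock itself differed between 2 and 8 weeks by limma. That of Igfbp7 grew by 0.577 log2 (adjusted p = 0.0414), and that of Akt2 changed by -0.537 log2 (adjusted p = 0.0222). Both missed the threshold when only the compared groups entered the fit (adjusted p = 0.0839 and 0.0798). Igfbp7 also missed it without a filter on level (adjusted p = 0.0739) and passed in only 8 of 22 fits that left out 1 library (adjusted p up to 0.101), while Akt2 passed in 18 of 22 (up to 0.0778). The libraries of 2 and 8 weeks ran on different lanes.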

How the results depend on the processing

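No called difference changed sign in an alternative that was run. The number of called members moved by over 1.5 times in these cases. With the meningeal fibroblast and choroid plexus scores as terms, 1 member (Igf2) was called for CAC against mock at 6 weeks and 2 (Igf2 and Igfbp4) at 8 weeks. For CAC against NCAC at 6 weeks the count was 2 without a filter on level, 1 under TMM scaling and 2 with the long transcript score as a term, an alternative chosen after seeing the data, in place of 4; it was 3 with only the groups compared (without Insr) and 4 with the marker scores (Igf2 in place of Igfbp4). The long transcript score also gave 2 for CAC against mock at 8 weeks. For CAC against NCAC at 8 weeks the count was 0 without a filter, 0 with only the groups compared and 4 without the 3 libraries that stood apart, in place of 1, and the 1 call was Igf2 with the marker scores and Insr with the long transcript score, not Igfbp2. Leaving out 1 library gave counts of 0 to 1 for CAC against mock at 2 weeks, NCAC against mock at 2 weeks and CAC against NCAC at 4 weeks, 1 to 4 for CAC against NCAC at 6 weeks and 0 to 4 at 8 weeks.

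With the replicate block, 0 members were called for CAC against NCAC at 8 weeks (Igfbp2, adjusted p = 0.0980) and Igfbp4 was lost for CAC against NCAC at 6 weeks (adjusted p = 0.0598), leaving 3; over all genes the block gave 498 in place of 1247 calls for CAC against mock at 8 weeks and 290 in place of 873 for CAC against NCAC. Replicates 6 and 7 exist only for CAC at 8 weeks. The block fits each of them by a term of its own, so comparisons with that group lost those libraries. Replicate numbers did not pair the samples: deviations from group means correlated at a mean of 0.004 over 330 pairs with the same number and -0.001 over 1430 other pairs. Counts over all genes moved widely. At 2 weeks fitting only the groups compared gave 0 in place of 620 calls for CAC against mock and 7 in place of 1262 for NCAC against mock. Other settings, leaving out single libraries aside, also moved counts by over 1.5 times. At 2 weeks, CAC against mock gave 278 with the marker scores, 349 without the 3 libraries and 1203 with the long transcript score; NCAC against mock gave 780 without a filter, 2038 under TMM scaling, 265 with the marker scores and 2470 with the long transcript score. At 4 weeks, CAC against mock gave 0 to 2 in place of 6 in 5 settings, NCAC against mock 2 in place of 0 with lane as a term, and CAC against NCAC 0 in place of 1 in 4 settings. At 6 weeks, CAC against mock gave 387 with the marker scores, 442 without the 3 libraries and 448 with the long transcript score in place of 236; NCAC against mock gave 1 in place of 0 without a filter; CAC against NCAC gave 904 without a filter, 719 under TMM scaling, 628 with only the groups compared and 795 with the long transcript score in place of 1399. At 8 weeks the calls rose to 2021 (against mock) and 1974 (against NCAC) without the 3 libraries, and fell to 284 against NCAC with only the groups compared. The change from 2 to 8 weeks gave 76 without a filter, 106 with the block, 39 with only the groups compared and 309 with the long transcript score in place of 191, and mock at 8 against 4 weeks gave 127 in place of 0 with only the groups compared. Leaving out 1 library moved the count over all genes to 78 (without CAC replicate 1) to 1234 (CAC replicate 4) for CAC against mock and 129 (NCAC replicate 2) to 1900 (NCAC replicate 4) for NCAC against mock at 2 weeks. At 4 weeks it gave 1 (CAC replicate 1 among others) to 760 (CAC replicate 5) for CAC against mock and 0 (CAC replicate 1 among others) to 1566 (CAC replicate 5) for CAC against NCAC. At 6 weeks it gave 54 (CAC replicate 1) to 407 (CAC replicate 3) against mock and 342 (CAC replicate 1) to 2508 (CAC replicate 2) against NCAC, and at 8 weeks 721 (CAC replicate 6) to 1763 (CAC replicate 3) against mock and 407 (NCAC replicate 5) to 1640 (CAC replicate 3) against NCAC. The change from 2 to 8 weeks gave 52 (mock replicate 5 at 2 weeks) to 356 (CAC replicate 3 at 8 weeks). TMM scaling also moved the share of higher calls for CAC against NCAC at 8 weeks from 72.9% to 47.6%, for CAC against mock at 6 weeks from 73.7% to 51.2% and at 2 weeks from 86% to 75.7%. Lepr, Ghr and Igf1 had the lowest levels, at 1.85 to 3.05 TPM, and the part of depth in their spread was not tested.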
